A study of Fragaria vesca with 9 samples.

Results

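The genes described here are 150 of the 34006 genes measured in axillary buds of woodland strawberry, *Fragaria vesca*, and they were higher by about the same amount in FT3OE and in RdV buds than in H4 buds. They were chosen by their measured levels. Counts were divided by the library total and scaled to counts per 1000000 (CPM), and log2(CPM + 0.5) was averaged over the 3 libraries of each genotype. A gene qualified when all 6 FT3OE and RdV libraries lay above all 3 H4 libraries, the FT3OE and RdV means differed by less than 0.3 on the log2 scale, and the mean over the 9 libraries was at least 1 CPM. A stretch of linkage group 4, from FvH4_4g29310 to FvH4_4g29630, was left out of the choice. Of 16968 genes with at least 1 CPM, 3313 (19.5%) met these conditions, and the members are the 150 with the largest smaller difference, that is, the lesser of FT3OE minus H4 and RdV minus H4. Height over H4 and likeness of FT3OE and RdV are therefore properties of the choice, and they are given as descriptions without a test.

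An axillary bud sits at the base of a leaf and holds its own meristem. In strawberry it may grow into a stolon, which makes daughter plants, or it may form a branch crown, which is a compact side shoot able to flower, or remain dormant. FT proteins are mobile signals that, in many plants, move from leaf to shoot apex and shift meristems towards flowering, and other members of the family act on branching and bud outgrowth. The series asks what sets the fate of these buds and what drives their growth into branch crowns.

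FT3OE is a line with the Hawaii-4 ecotype and genotype in its labels and FT3 in its titles, read here as overexpression of FT3. RdV is a separate ecotype, for which the labels name no transgene, and H4 is the Hawaii-4 accession itself. All 9 libraries came from undifferentiated buds at node 4 of untreated plants with 4 leaves, grown in days of 16 h at 22 °C and nights of 8 h at 18 °C. The labels name neither the promoter that drives FT3 nor the number of lines or plants, so the spread between the 3 libraries of a genotype may be technical. The titles carry the code UB4 for FT3OE and RdV and US4 for H4, undefined in the labels. The members are high in exactly the libraries coded UB4, so a difference marked by these codes and a difference between genotypes cannot be told apart for any of them. In bulk RNA, more cells of a type and more RNA per cell cannot be told apart either.

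The libraries held 23110933 to 44916872 expected counts, a ratio of 1.94, and the deepest pair were FT3OE replicates 2 and 3. The deposited identifiers carry no gene names, and 0 of 34006 matched the gene table used here. Genes are therefore given by identifier, with no role, and bud markers, pathway lists and the overexpressed gene were not looked up by name. Of the 7 genes with at least 10 counts in every FT3OE library and at most 3 in every other, which were picked after their values were seen, FvH4_3g09870 had the most, at 7584, 11460 and 13889 counts in FT3OE, against 1, 0 and 0 in RdV and 3, 1 and 0 in H4. Identifiers are taken to give the linkage group before the letter g and the position in gene order after it. No sequence is shown, because no table used here pairs these identifiers with one.

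Most members differed from H4 by a little more than 2-fold to about 3-fold. FT3OE minus H4 ran from 1.07 to 3.02 on the log2(CPM + 0.5) scale with a median of 1.33, and RdV minus H4 from 1.07 to 3.26 with a median of 1.39. Over all genes with at least 1 CPM the medians were 0.10 and 0.06. All 150 members were at least 2-fold higher in both genotypes, 31 had a smaller difference of at least 1.5, and only 2 reached 4-fold. The lowest FT3OE or RdV library stood above the highest H4 library by 0.23 to 2.62, with a median of 0.91, and 58 members had a gap of at least 1. No member was silent in H4: the fewest counts summed over the 3 H4 libraries were 27. In the heat map of member values by library, the members are seen as genes already read in H4 and read more in FT3OE and RdV.

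**Figure D1:**
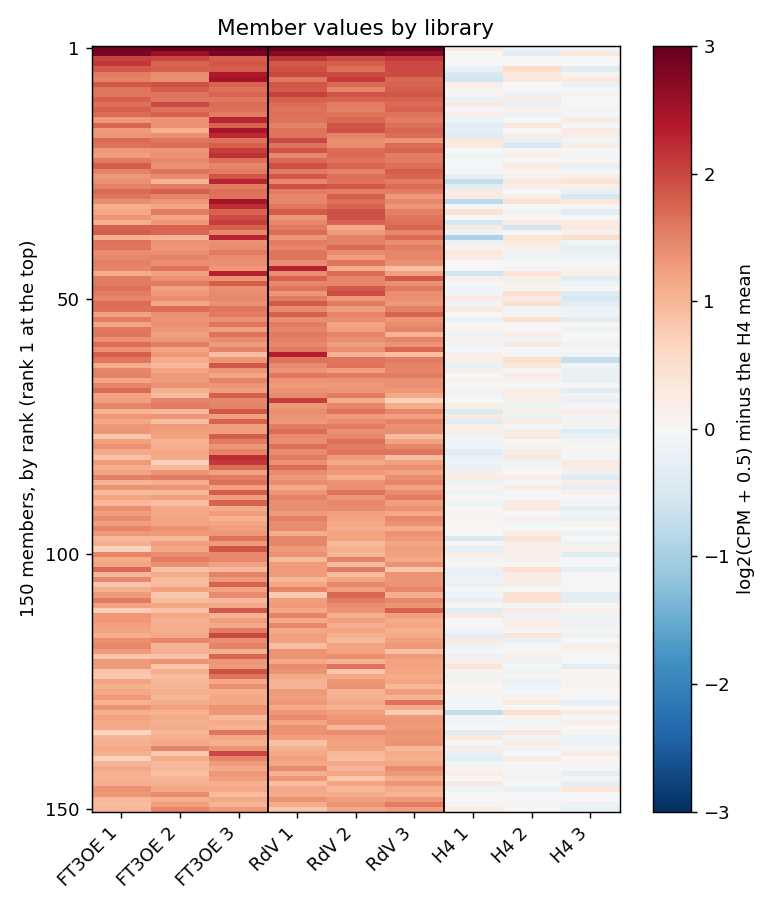
Heat map of the 150 members (rows, by rank) in the 9 libraries (columns), coloured by log2(CPM + 0.5) minus the H4 mean of the gene. All FT3OE and RdV columns lie above the H4 columns because the genes were chosen that way; the column of FT3OE replicate 3 is darker than those of replicates 1 and 2 in part of the rows.

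The largest differences belonged to FvH4_7g03990. It had 18.5, 22.7 and 20.5 CPM in FT3OE replicates 1, 2 and 3, 26.0, 22.8 and 23.8 CPM in RdV and 2.59, 1.82 and 1.90 CPM in H4. All 6 FT3OE and RdV values were far above the highest H4 value, and the RdV and FT3OE libraries just failed to overlap. With edgeR, which scales libraries by TMM and needs no offset, its log2 difference from H4 was 3.18 ± 0.13 (SE) in FT3OE and 3.43 ± 0.13 in RdV.

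FvH4_1g18850 was the only other member past 4-fold in both genotypes and was read far more deeply. Its values were 221, 185 and 221 CPM in FT3OE, 208, 217 and 201 CPM in RdV and 30.6, 24.5 and 37.8 CPM in H4. FT3OE and RdV interleave, and their means on the log2 scale differ by 0.00075, the least of the 75 members with at least 10 CPM. Its edgeR log2 differences from H4 were 2.66 ± 0.14 (SE) in FT3OE and 2.67 ± 0.14 in RdV.

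After these the sizes fell off. FvH4_5g27870 had 27.8, 27.3 and 24.2 CPM in FT3OE, 30.2, 26.9 and 29.6 CPM in RdV and 6.54, 6.32 and 6.58 CPM in H4, with H4 libraries within 0.3 CPM of each other. FvH4_6g42570 had 36.2, 27.9 and 30.2 CPM in FT3OE, 29.9, 29.1 and 32.6 CPM in RdV and 7.65, 7.92 and 8.18 CPM in H4. On the offset scale both stood 3.68-fold to 4.21-fold over H4, far above the spread of the H4 libraries.

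The end of the list is a matter of rank and not of a step in the values. The last genes inside, FvH4_6g38570 and FvH4_7g15740, had smaller differences of 1.068 and 1.068, and the next ones outside, FvH4_1g19550 and FvH4_1g17390, had 1.066 and 1.065. FvH4_7g15740 had 2.64, 3.77 and 3.32 CPM in FT3OE, 2.26, 2.96 and 3.28 CPM in RdV and 1.35, 1.04 and 0.882 CPM in H4, on 24 to 166 counts a library. FvH4_1g17390 had 99.5, 95.2 and 104 CPM in FT3OE, 112, 113 and 113 CPM in RdV and 49.1, 45.4 and 47.5 CPM in H4, on 1049 to 4680 counts a library. The more precisely measured gene is thus the one left out. Had the stretch of linkage group 4 been kept, 3 of its genes would have entered.

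The members covered 3 orders of magnitude in level, with most of them low. In TPM, a transcript level that also divides by gene length, their means over the 9 libraries ran from 0.82 to 1101 with a median of 8.76, against 21.5 for all genes with at least 1 CPM. Summed over the 150 members, TPM were 6393, 5814 and 7453 in FT3OE, 6758, 6854 and 6795 in RdV and 2088, 2436 and 2214 in H4. A single gene, FvH4_6g41500, held 21.2% of the summed mean, and the 4 most abundant together 35.6%.

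FvH4_6g41500 had 1517, 1156 and 1524 TPM in FT3OE, 1313, 1601 and 1463 TPM in RdV and 349, 553 and 434 TPM in H4. Its FT3OE and RdV libraries spread widely and overlap, and the highest H4 library stayed below 0.5 of the lowest of them. FvH4_4g35660 had 315, 297 and 644 TPM in FT3OE, 356, 473 and 398 TPM in RdV and 74.1, 134 and 136 TPM in H4. FvH4_4g28390 had 218, 229 and 440.3 TPM in FT3OE, 289, 288 and 277 TPM in RdV and 76.4, 85.9 and 101 TPM in H4. In FvH4_4g35660 and FvH4_4g28390, FT3OE replicate 3 was far above the other FT3OE libraries, and no H4 library reached the lowest of the others. FvH4_1g12090 lacked this feature, with 289, 238 and 256 TPM in FT3OE, 274, 303 and 290.0 TPM in RdV and 102, 104 and 76.1 TPM in H4. The plot of the leading members by library shows both kinds.

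**Figure D2:**
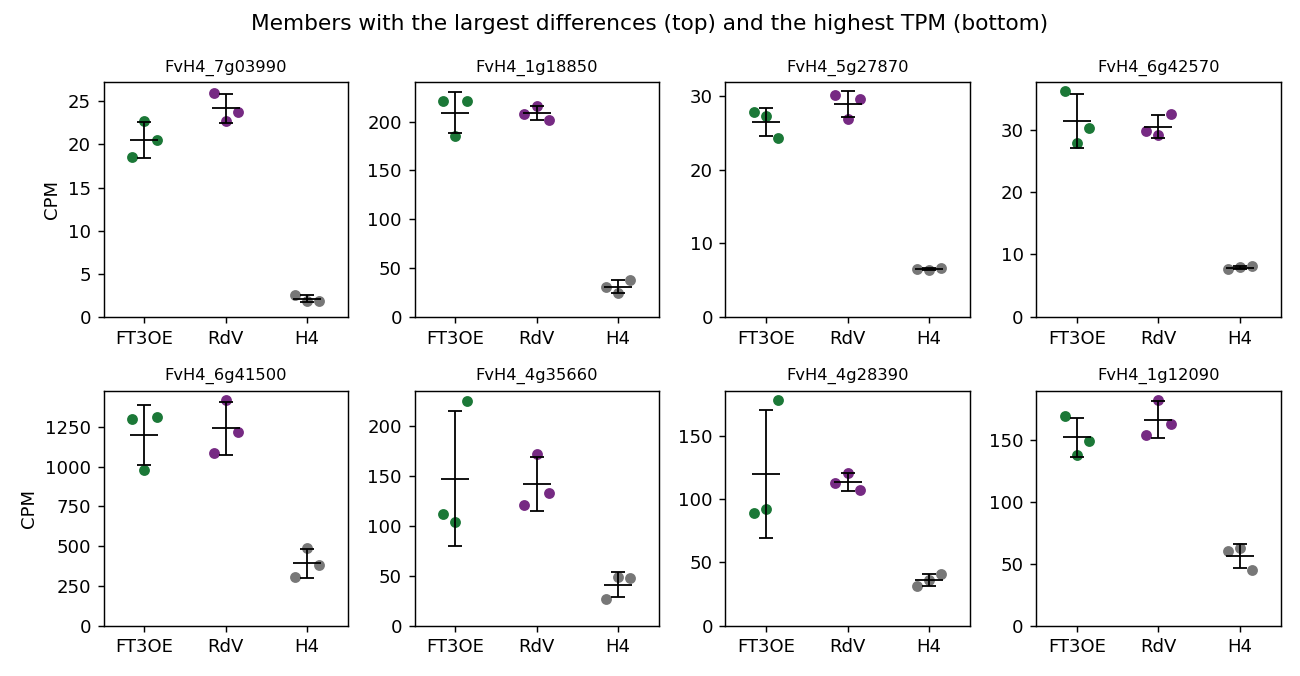
CPM of the 4 members with the largest differences from H4 (top) and the 4 with the highest mean TPM (bottom); each point is 1 library and the black bar with whiskers is the mean ± SD of 3 libraries. FvH4_4g35660 and FvH4_4g28390 each have 1 high FT3OE point, replicate 3, at 225 and 178 CPM.

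How equal FT3OE and RdV were is known less well than the limit of 0.3 implies. RdV was the higher by means in 89 members and FT3OE in 61, and the difference was under 0.1 in 64 and under 0.2 in 108. In the edgeR fit the SE of the log2 difference of RdV from FT3OE had a median of 0.16 and ran from 0.06 to 0.46. For 81 of the 150 members 2 SE alone exceeded 0.3. In only 29 members did the difference plus or minus 2 SE stay inside ±0.3. In all the others a difference larger than the limit lies within 2 SE. The RdV and FT3OE libraries did not overlap in 25 members, with RdV above FT3OE in 14 and FT3OE above RdV in 11. The share over all genes was not counted and the rule bounded this difference, so nothing is read from the 25.

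FvH4_2g04502 was measured most evenly, with the least spread between replicates among members of at least 10 CPM. It had 127, 119 and 114 CPM in FT3OE, 111, 113 and 119 CPM in RdV and 45.7, 43.9 and 46.8 CPM in H4, and its edgeR log2 difference of RdV from FT3OE was −0.06 ± 0.06 (SE). FvH4_1g09580 lies near the limit: RdV had 106, 98.3 and 91.6 CPM and FT3OE 87.0, 71.7 and 84.5 CPM, with no overlap, over 31.7, 35.0 and 33.3 CPM in H4. FvH4_7g22630, also near the limit, had 26.6, 21.6 and 28.2 CPM in RdV and 23.1, 20.05 and 19.7 CPM in FT3OE, which overlap, over 8.41, 8.48 and 5.84 CPM in H4. So similar differences in means came with separate libraries in FvH4_1g09580 and mixed ones in FvH4_7g22630.

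Other genes were raised as far in both genotypes without being alike in them. In all, 267 genes had all FT3OE and RdV libraries above H4 and a smaller difference at least as large as that of the last member. Of these, 150 are the members, 100 were higher in RdV than in FT3OE by 0.3 or more, and 17 were higher in FT3OE than in RdV by 0.3 or more. Departures from equality among genes raised this far thus lay mostly on the RdV side. RdV was also called higher than H4 in more genes overall by edgeR, 24.4% of those tested against 16.7% for FT3OE. The part of this wider difference in the counts of 100 and 17 was not tested. The scatter of differences from H4 shows where the members sit among all genes.

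**Figure D3:**
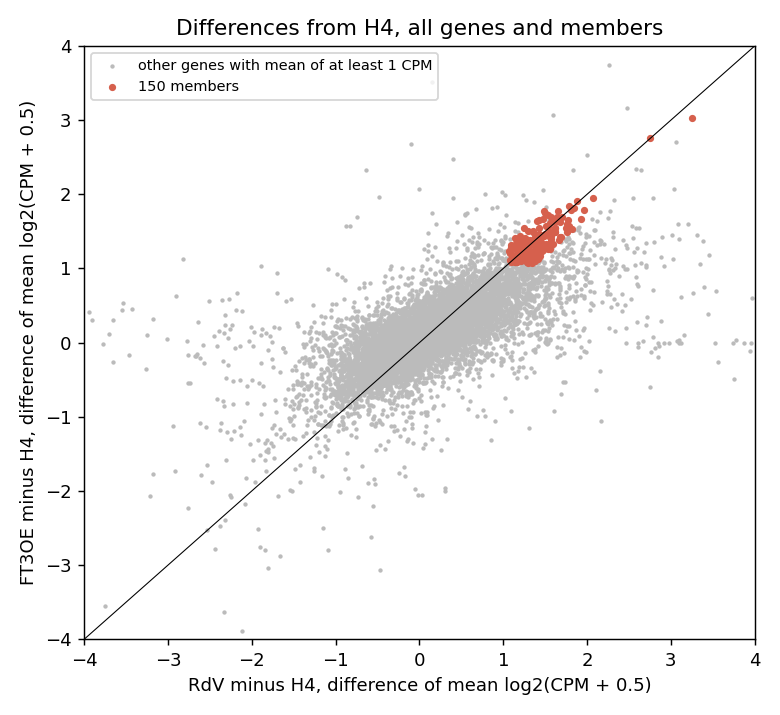
Difference of mean log2(CPM + 0.5) from H4 in FT3OE (vertical) and RdV (horizontal) for 16968 genes with at least 1 CPM (43 lie beyond the axes of ±4); members in red, diagonal line for equal differences. Both axes subtract the same 3 H4 libraries, which by itself draws points along the diagonal, and the members form a narrow band on it because the rule set its width.

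The edgeR quasi-likelihood test across all 18587 genes that passed its low-count filter, with Benjamini-Hochberg adjusted p under 0.05, called all 150 members higher in FT3OE than in H4 and all 150 higher in RdV than in H4. Over all genes tested, 16.7% were called higher in FT3OE than in H4 and 14.9% lower, and 24.4% were called higher in RdV than in H4 and 23.6% lower. The rule used these contrasts, and both share the H4 libraries, so nothing is read from the counts. The members' median edgeR log2 difference was 1.44 in FT3OE and 1.47 in RdV. Between RdV and FT3OE, 6 members were called higher and 0 lower, against 11.1% of genes higher and 11.1% lower, a contrast that the rule bounded.

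The rule counted on library totals, whereas TMM scaling raised H4 relative to the others. The TMM factors were 0.954 to 0.972 in H4 and 0.986 to 1.04 in the other libraries. With TMM-scaled CPM the members' median was 1.25 for FT3OE minus H4 and 1.31 for RdV minus H4, while that of all genes with at least 1 CPM was 0.01 and −0.01. Of the genes called in the edgeR test, 52.9% were higher in FT3OE than in H4 with TMM and 72.0% with library totals alone, and 50.9% and 62.5% were higher in RdV than in H4. Of the 150 members, 146 were chosen again with TMM scaling and 131 with TPM.

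Members chosen without one replicate number were also read in the libraries left out, each giving 1 library a genotype. With the 3 libraries numbered 1 left out, 150 genes chosen on the other 6 had a median of 1.29 for FT3OE minus H4 and 1.47 for RdV minus H4 in the libraries numbered 1, and all 150 were above H4 in both. Leaving out the libraries numbered 2 gave 1.07 and 1.29, with 144 above H4 in both. Leaving out those numbered 3 gave 1.30 and 1.32, with 148 above H4 in both. Among all genes with at least 1 CPM, 45.4% to 49.6% were above H4 in both. Both differences subtract the same single H4 library, and the codes UB4 and US4 divide the left-out libraries as before. Genes are not replicates of a genotype, so these counts are a description.

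Equality carried over less than height. The share of genes with RdV and FT3OE within 0.3 of each other in the left-out libraries was 62.0%, 40.7% and 73.3% for the genes chosen without numbers 1, 2 and 3, close to or below the 65.4%, 61.1% and 72.4% of all genes with at least 1 CPM. A pair of single libraries is noisier than means of 3, and no test was made on 1 library a group. The 150 members of the full rule also had lower counts than genes at large, with a median of 9.96 against 25.4 CPM. The part of level in these shares was not tested. The shares are thus a description of these libraries.

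A subset of members shared a pattern between the libraries of a genotype. The rule used the same values, since a high FT3OE library raises the FT3OE mean and a low H4 library lowers the H4 mean, and both help a gene to rank among the members, so the pattern is a description. In 29 members (19.3%), FT3OE replicate 3 lay more than 0.5 above the FT3OE mean on the log2(CPM + 0.5) scale, against 123 (0.725%) of all genes with at least 1 CPM and 0 of the 150 genes lowered alike, which the mirrored rule took as those with all FT3OE and RdV libraries below H4. No other library had more than 5 members that far above its genotype mean. The mirrored rule ranks by low FT3OE and RdV means, which a high FT3OE library works against, so its 0 is no contrast. In these 29 members the median deviation was 0.62 in FT3OE replicate 3, −0.34 in replicate 1 and −0.29 in replicate 2. Replicate 1 of H4 was the lowest of the 3 in 26 of the 29, with a median deviation of −0.22, against 0.19 and 0.12 in H4 replicates 2 and 3. Over all genes with at least 1 CPM the medians of H4 replicates 1, 2 and 3 were 0.016, −0.019 and 0.001. The share of all genes lowest in H4 replicate 1 was not counted, so nothing is read from the 26. Within RdV the medians of the 29 members stayed between −0.02 and 0.08. The box plots of deviations by library set these 29 beside the other 121.

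**Figure D4:**
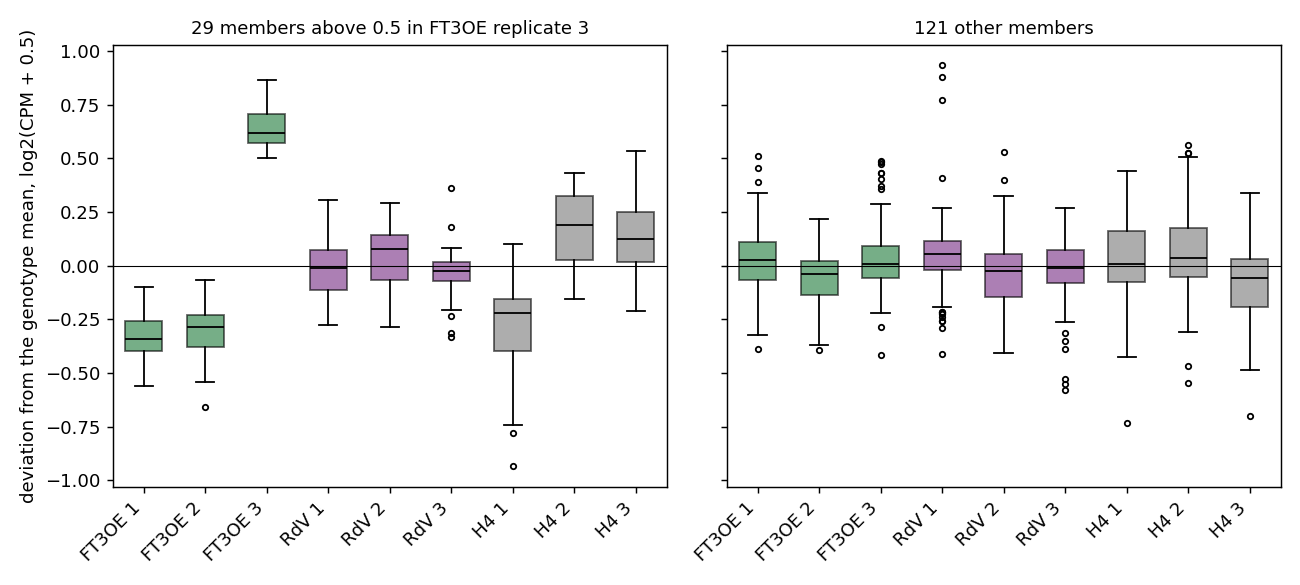
Deviation of each library from its genotype mean on the log2(CPM + 0.5) scale, for the 29 members more than 0.5 above the mean in FT3OE replicate 3 (left) and the other 121 members (right); boxes span the quartiles with the median as a line, whiskers reach 1.5 times that span, and points lie beyond. On the left, FT3OE replicate 3 is high by selection, which sets replicates 1 and 2 low, and the median of H4 replicate 1 lies below those of H4 replicates 2 and 3; the rule favours a high FT3OE and a low H4 mean.

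FvH4_7g04090 and FvH4_6g00660, the members of at least 10 CPM with the most spread between replicates, show the pattern. FvH4_7g04090 had 22.9, 22.3 and 54.1 CPM in FT3OE, 27.5, 31.2 and 35.4 CPM in RdV and 5.35, 14.3 and 15.7 CPM in H4. FvH4_6g00660 had 16.1, 15.3 and 35.2 CPM in FT3OE, 16.4, 19.1 and 16.4 CPM in RdV and 3.15, 7.96 and 7.50 CPM in H4. In both, FT3OE replicate 3 is more than double the other FT3OE libraries, H4 replicate 1 is under 0.5 of the other H4 libraries, and RdV varied less. The edgeR log2 difference of FvH4_7g04090 from H4 was 1.41 ± 0.41 (SE) in FT3OE and 1.34 ± 0.41 in RdV, 0.85 ± 0.34 in FT3OE without FT3OE replicate 3 and 1.05 ± 0.36 in FT3OE without H4 replicate 1, and its call was lost in these fits.

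These 29 members were also read with FT3OE replicate 3 left out, which lowers their FT3OE mean by construction, since they were picked for a high value there. The median of RdV minus FT3OE was 0.02 with all libraries and 0.38 without it. The median of FT3OE minus H4 was 1.40 with all libraries and 1.05 on FT3OE replicates 1 and 2, and that of RdV minus H4 was 1.46.

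The genes high in FT3OE replicate 3 were mostly genes that RdV also expressed above H4. Of the 123 genes with a deviation above 0.5 there, 89 (72.4%) had an RdV mean at least 1 above the H4 mean, against 6.02% of all genes with at least 1 CPM. Their median of RdV minus H4 was 1.32, 41 of them met all conditions of the rule, and 29 (23.6%) are members. The plot of FT3OE replicate 3 against the RdV difference shows this for all genes. The rule placed these members among the 89, since every member had RdV at least 1.07 above H4. These 29 are the smaller part of the 89, and the other genes of the 89 are not members. FT3OE replicate 3 was also the deepest library, while FT3OE replicate 2, with 44045169 counts against 44916872, had 0 members that far above the mean, and the part of depth or handling in the pattern was not tested.

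**Figure D5:**
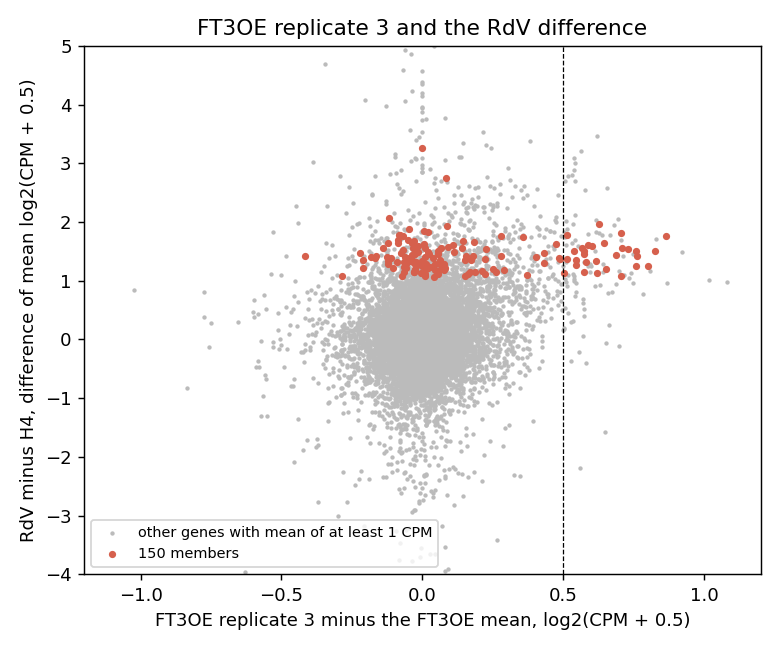
Deviation of FT3OE replicate 3 from the FT3OE mean (horizontal) against RdV minus H4 (vertical), both on log2(CPM + 0.5), for 16968 genes with at least 1 CPM (29 lie beyond the axes); members in red, dashed line at 0.5. Of the 123 genes right of the line, 89 lie at 1 or more on the vertical axis, among them 29 members, which the rule placed there.

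Spread between replicates was larger in the members than in genes at large, in FT3OE and H4 more than in RdV. The median SD of log2(CPM + 0.5) over the 3 libraries was 0.155 in FT3OE, 0.130 in RdV and 0.203 in H4, against 0.081, 0.127 and 0.091 over all genes with at least 1 CPM. The first component of the members' deviations from genotype means carried 49.9% of their within-genotype variance and set FT3OE replicate 3 (loading 0.69) against H4 replicate 1 (−0.43) and FT3OE replicates 1 and 2 (−0.34 and −0.35). Over all genes with at least 1 CPM the first component instead set RdV replicate 2 (0.70) against RdV replicate 1 (−0.63). The members also had lower counts than other genes, with a median of 9.96 against 25.4 CPM, and the part of low counts in their spread was not tested.

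The members were scattered over all 7 linkage groups. They numbered 22, 19, 27, 12, 22, 29 and 19 on linkage groups 1 to 7, and of the genes with at least 1 CPM 18.5% to 20.1% on each group met the conditions of the rule. Linkage group 4 held 8.00% of the members and 12.9% of the genes with at least 1 CPM. The stretch left out by the rule lies on it, and only 3 genes of that stretch would have entered. The part of the stretch in the lower share was not tested. In all, 18 members (12%) had another member within 10 identifiers, in 9 pairs and no larger group. The leading member, FvH4_7g03990, and the widely spread FvH4_7g04090 were 1 such pair, 10 identifiers apart. By the mirrored rule, which takes the 150 genes lowered most alike in both genotypes, 41 genes (27.3%) had such a neighbour. The share for 150 genes at large was not counted, so the members are not called more or less scattered than these.

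FvH4_1g14660 and FvH4_1g14710, 6 identifiers apart, had like profiles. FvH4_1g14660 had 21.5, 26.9 and 24.3 CPM in FT3OE, 20.2, 22.2 and 19.1 in RdV and 10.6, 8.65 and 8.99 in H4. FvH4_1g14710 had 14.0, 14.9 and 14.1 CPM in FT3OE, 12.4, 13.8 and 10.8 in RdV and 5.42, 4.15 and 4.62 in H4. In both, FT3OE replicate 2 was the highest library and H4 replicate 1 the highest of H4.

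FvH4_1g28680 and FvH4_1g28731, 7 identifiers apart, were unlike within genotypes. FvH4_1g28680 had 6.79, 7.56 and 5.97 CPM in FT3OE, 12.5, 5.14 and 4.33 in RdV and 2.17, 1.95 and 2.27 in H4, and RdV replicate 1 stood alone: the edgeR log2 difference from H4 in RdV was 1.69 with it and 1.09 without it. FvH4_1g28731 had 8.72, 8.33 and 8.59 CPM in FT3OE, 9.18, 7.55 and 9.63 in RdV and 1.71, 3.29 and 1.53 in H4, where H4 replicate 2 was the high one. Of the 9 pairs, 2 had both genes in the set high in FT3OE replicate 3.

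FvH4_2g07050 and FvH4_2g07080, 4 identifiers apart, differed in level. FvH4_2g07050 had 62.3, 59.9 and 77.0 CPM in FT3OE, 60.1, 75.5 and 59.4 in RdV and 30.5, 26.4 and 31.9 in H4. FvH4_2g07080 had 5.51, 3.88 and 5.52 CPM in FT3OE, 6.10, 7.10 and 5.22 in RdV and 2.69, 1.90 and 1.46 in H4. Genotypes overlapped in neither gene with H4, and RdV and FT3OE overlapped in both.

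Gene length, read from the ratio of counts to TPM, was near that of genes at large and seldom great. Relative to the median gene with at least 1 CPM, the members' effective length had a median of 0.96 and ran from 0.06 to 2.52, and the genes lowered alike had a median of 0.91. Of 4 equal classes by length, the longest held 25 members (16.7%), although the conditions of the rule were met more often there, by 25.6% of genes against 13.1% in the shortest class. In that longest class the median of all genes was 0.15 for FT3OE minus H4 and 0.15 for RdV minus H4, against 0.05 and −0.02 in the shortest. The part of gene length in the members' differences was not tested.

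The longest members of at least 10 CPM had H4 libraries well below all others. FvH4_5g07280, at 2.52 times the median length, had 25.9, 29.5 and 26.9 CPM in FT3OE, 27.7, 22.0 and 29.3 CPM in RdV and 11.6, 11.1 and 10.8 CPM in H4. FvH4_6g14620, at 2.32 times, had 160.0, 154 and 153 CPM in FT3OE, 175, 146 and 171 CPM in RdV and 76.2, 68.2 and 70.4 CPM in H4. FvH4_1g14710 and FvH4_4g35660, whose values stand above, were the shortest of at least 10 CPM, at 0.16 and 0.30 times.

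Expected counts with a fraction, which arise where reads are shared between gene models, were found in 3 members (2.00%), against 5.37% of all genes with at least 1 CPM. In the other 147 members every expected count was whole as deposited, in a table that gives up to 2 decimals. Identifiers that end in a digit other than 0 made up 6.67% of the members and 9.69% of those genes.

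Whether more genes were raised alike or lowered alike depended on the scaling. The mirrored rule was met by 1509 genes (8.89%), against 3313 (19.5%) for the members' rule, on library totals. With TMM scaling the mirrored rule was met by 2438 genes and the members' rule by 2280. The 150 leading genes of the mirrored rule had medians of −0.85 for FT3OE minus H4 and −0.91 for RdV minus H4, and of −0.94 and −0.99 with TMM, smaller in size than the members' medians under either scaling. The lowered genes were also higher in level, with a median of 13.5 TPM against 8.76.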

How the data were processed

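RNA-seq was measured in 9 libraries of axillary buds, 3 each of FT3OE, RdV and H4, as stranded mRNA libraries read as pairs of 150 bp, per the labels' protocols. The authors deposited 2 tables of 34006 genes: expected counts and TPM, transcript levels scaled by gene length and library. The submitters' processing notes name STAR, RSEM and edgeR without versions, and the genome build is not given in the sources used here. Between 97.3% and 97.6% of the expected counts of a library were whole as deposited, in a table with up to 2 decimals. CPM were computed here from the deposited expected counts and the library totals, with an offset of 0.5 before log2. For the tests, expected counts were rounded to whole numbers and fitted over all 9 libraries with edgeR 4.0.16 in R 4.3.3 (TMM scaling, filterByExpr, quasi-likelihood test, Benjamini-Hochberg adjustment over 18587 genes, threshold 0.05). DESeq2 1.42.0 and limma 3.58.1 on log2 TPM were alternatives, beside other scalings, filters, limits of the rule and left-out libraries. The edgeR fit was tested on simulated counts. Relative length was the median ratio of count to TPM over libraries with at least 10 counts, divided by that of the median gene.

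The members and lists were chosen with earlier results of these data known. Genes named are the 4 largest by the smaller difference, the last 2 members and the next 2 genes by rank, the 4 highest by mean TPM, neighbouring members up to 6, and, among members of at least 10 CPM, the 2 at each end of replicate spread, of the difference between RdV and FT3OE and of length, plus the 6 called between RdV and FT3OE. Members with at most 3 counts over H4 would also have been named, and there were 0.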

Additional observations from a re-analysis of the deposited data

Results flagged for a closer look

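In 6 members RdV and FT3OE differed in the edgeR quasi-likelihood test over all 18587 genes, although the members were chosen for a small difference between these genotypes, so the calls are given as values only. All 6 were higher in RdV, while 11.1% of all genes tested were called higher in RdV and 11.1% lower. Their standard errors were small, which follows from the choice: with the difference bounded by the rule, a call needs a small standard error. The log2 difference of RdV from FT3OE was 0.219 ± 0.071 (SE, adjusted p = 0.0499) for FvH4_3g43490, which averaged 142 ± 8.50 CPM in RdV and 123 ± 2.19 CPM in FT3OE (SD, n = 3 each), over 50.5 ± 5.22 CPM in H4. FvH4_1g09580 differed by 0.30 ± 0.084 (edgeR adjusted p = 0.0273), and its libraries are given above. FvH4_1g07160 differed by 0.241 ± 0.060 (edgeR adjusted p = 0.0158), with 37.7 ± 2.69 CPM in RdV and 32.2 ± 0.777 CPM in FT3OE, over 13.4 ± 0.374 CPM in H4.

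FvH4_6g29180 differed by 0.227 ± 0.063 (edgeR adjusted p = 0.0250), with 82.2 ± 7.17 CPM in RdV, 70.8 ± 4.28 CPM in FT3OE and 31.1 ± 0.611 CPM in H4. FvH4_6g46500 differed by 0.250 ± 0.081 (edgeR adjusted p = 0.05, just under the threshold), with 26.3 ± 1.37 CPM in RdV, 22.4 ± 1.77 CPM in FT3OE and 10.2 ± 0.667 CPM in H4. FvH4_1g19500 differed by 0.236 ± 0.069 (edgeR adjusted p = 0.0332), with 21.3 ± 0.985 CPM in RdV, 18.2 ± 0.971 CPM in FT3OE and 8.37 ± 0.195 CPM in H4. In each the difference between RdV and FT3OE was far smaller than that of either from H4, and the number of members called moved with the settings given next.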

How the results depend on the processing

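The number of members called between RdV and FT3OE depended on the processing: 6 with edgeR and TMM, 2 with library totals, 3 with no filter on low counts, 0 under each of the 3 limma settings, and 2 to 8 with a library left out. Genes called between RdV and FT3OE numbered 4122, and 2744 with limma on log2(TPM + 0.1). With limma, 76.8% to 77.9% of the genes called were higher in FT3OE than in H4 and 68.0% to 68.3% in RdV than in H4. Leaving out a library gave 4119 to 7372 genes called between FT3OE and H4, 7499 to 10014 between RdV and H4 and 2883 to 5183 between RdV and FT3OE, and 146 to 150 and 148 to 150 members called against H4 in FT3OE and RdV. Calls against H4 were followed for the named genes except FvH4_3g43490, FvH4_1g07160, FvH4_6g29180 and FvH4_6g46500. The 4 lost calls among those followed were all of FvH4_7g04090. Its log2 difference in FT3OE against H4 was 1.05 without H4 replicate 1 (edgeR adjusted p = 0.0645) and 0.85 without FT3OE replicate 3 (edgeR adjusted p = 0.103). In RdV against H4 it was 0.97 without H4 replicate 1 (edgeR adjusted p = 0.0585) and 1.25 without RdV replicate 3 (edgeR adjusted p = 0.0569). The cause was not tested.

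The rule kept 101 to 136 members when libraries were left out, 105 with a minimum of 5 CPM, 108 and 115 with limits of 0.2 and 0.5, and 129 with either other offset. Genes meeting its conditions numbered 3313, against 2280 with TMM, 2222 with RLE, 2785 and 3801 with limits of 0.2 and 0.5, 12728 when overlap was allowed and 3355 to 4698 with libraries left out. In alternatives chosen after seeing the data, the mirrored rule was met by 2438 genes with TMM and 2515 with RLE, against 1509 with library totals. The members' median smaller difference was 1.28, 1.22 to 1.35 with a library left out, 1.201 with TMM, 1.19 with RLE, 1.33 with TPM, and 1.433 and 1.203 with offsets of 0.1 and 1. Members with a neighbour were 10 within 5 identifiers and 32 within 20. The median relative length was 0.952, 0.958, 0.967 and 0.950 from H4 replicates 1 and 2 and RdV replicates 2 and 3 alone. With cuts of 0.4 and 0.7, chosen after seeing the data, 35 and 10 members were high in FT3OE replicate 3, and leaving that library out, also chosen after seeing the data, moved the median of RdV minus FT3OE from 0.0231 to 0.375 in the 29.

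Same-numbered libraries did not deviate together in every pair: correlations of deviations from group means were 0.051, 0.279 and 0.254 for RdV and H4 and ran from −0.254 to 0.055 for the pairs with FT3OE over 18587 genes, so the numbers were not taken to pair the samples. With the replicate number as a block, 5312, 8533 and 3611 genes were called in FT3OE against H4, RdV against H4 and RdV against FT3OE, and 150, 150 and 4 members.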
